A study of Homo sapiens with 6 samples.

Results

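The IFIT genes encode interferon-induced proteins with tetratricopeptide repeats. The members examined were IFIT1, IFIT2, IFIT3 and IFIT5, which were chosen by name, together with every peak region over these 4 genes and the space between them on chromosome 10. They were 4 of the 24131 genes placed on the genome. Over the 137912 bp from the start of IFIT2 to the end of IFIT5 (chr10:91043451-91181362, GRCh37, the same sequence as hg19), the H3K27ac lists held 5 of 19705 regions in control cells and 4 of 17672 in siDLEU1 cells. The H3K4me3 lists held 11 of 58582 and 10 of 56943 regions there.

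ChIP-seq was carried out in HSC3, an established oral squamous cell carcinoma (OSCC) line, 72 h after transfection with a control siRNA (siCONT) or with siDLEU1, an siRNA against the long noncoding RNA DLEU1. H3K27ac, an acetylation of active promoters and enhancers, and H3K4me3, a methylation of promoters, were each measured in 1 library per siRNA. The study profiled both marks genome-wide to find downstream targets of DLEU1. The interferon-related genes described here were chosen with earlier results of these data known. All groups were cells of the same line in the same medium, and siCONT and siDLEU1 cells differed by the siRNA alone as far as the labels say. There was no replicate, so no difference below has a replicate check and no test between the siRNAs was possible.

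IFIT transcripts are induced by type I interferon. Interferon receptors activate the kinases JAK1 and TYK2, which phosphorylate STAT proteins. STAT2 and IRF9 are subunits of the resulting factor, ISGF3, which binds the interferon-stimulated response element (ISRE) of its target promoters. IFIT1 binds viral RNA that lacks the methylated cap of the host, IFIT2 and IFIT3 form complexes with it, and IFIT5 binds RNA with a 5′ triphosphate.

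The 250 bp before each start are shown because the ISRE lies there, within or at the edge of the regions described below. They were read from GRCh37 on the plus strand, the strand of all of these genes. Capitals mark each match to the core of the ISRE, GAAA followed by any 2 bases and by GAAA again, which was searched on both strands. Every match lay on the minus strand and therefore reads TTTC, 2 bases and TTTC. No match overlapped another. The windows were chr10:91061553-91061802 for IFIT2, chr10:91087504-91087753 for IFIT3, chr10:91091991-91092240 for a second start inside IFIT3, chr10:91152130-91152379 for IFIT1 and chr10:91174075-91174324 for IFIT5.
IFIT2: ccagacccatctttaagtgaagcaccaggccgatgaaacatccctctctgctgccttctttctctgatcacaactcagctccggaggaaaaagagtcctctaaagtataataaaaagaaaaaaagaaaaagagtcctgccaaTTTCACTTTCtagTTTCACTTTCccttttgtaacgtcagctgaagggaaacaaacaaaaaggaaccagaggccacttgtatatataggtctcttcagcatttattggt
IFIT3: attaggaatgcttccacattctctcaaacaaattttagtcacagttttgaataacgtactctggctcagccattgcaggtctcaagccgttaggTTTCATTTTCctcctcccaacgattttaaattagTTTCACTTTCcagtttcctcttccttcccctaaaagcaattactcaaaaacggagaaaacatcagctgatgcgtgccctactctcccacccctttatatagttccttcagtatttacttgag
IFIT3 second start: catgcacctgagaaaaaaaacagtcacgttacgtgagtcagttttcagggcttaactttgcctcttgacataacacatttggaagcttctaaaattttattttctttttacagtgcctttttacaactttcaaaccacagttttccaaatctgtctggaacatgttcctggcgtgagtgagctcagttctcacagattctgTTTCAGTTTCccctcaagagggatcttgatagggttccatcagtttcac
IFIT1: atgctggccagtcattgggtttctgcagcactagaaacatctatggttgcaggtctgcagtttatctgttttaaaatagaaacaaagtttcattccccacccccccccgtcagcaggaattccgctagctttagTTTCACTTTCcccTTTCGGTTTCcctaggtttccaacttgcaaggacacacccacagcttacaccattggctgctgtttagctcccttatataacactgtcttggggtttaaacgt
IFIT5: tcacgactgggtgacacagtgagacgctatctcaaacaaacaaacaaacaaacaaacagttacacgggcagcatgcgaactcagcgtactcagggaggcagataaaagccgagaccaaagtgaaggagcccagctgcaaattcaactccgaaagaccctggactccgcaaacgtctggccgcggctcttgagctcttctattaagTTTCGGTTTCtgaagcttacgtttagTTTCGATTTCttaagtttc
IFIT1, IFIT2, IFIT3 and IFIT5 each held 2 matches, and the second start of IFIT3 held 1. Of the canonical promoters of all 24131 genes, 2.92% held at least 1 match in the same window and 0.224% held 2 or more. The related gene IFIT1B, which lies between IFIT3 and IFIT1, held 0 matches. The pair in IFIT2 ran from -108 to -86 relative to the transcription start site (TSS), the pair in IFIT1 from -116 to -94, the pair in IFIT3 from -156 to -113 and the pair in IFIT5 from -45 to -10. A match is a run of letters and not a measured site of binding.

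All members are transcribed from left to right. The IFIT2 gene (ENSG00000119922) runs from 91043451 to 91069028 and its canonical transcript starts at 91061803, with exon 1 ending at 91061885. IFIT3 (ENSG00000119917) runs from 91087064 to 91137230, with its canonical start at 91087754. IFIT1 (ENSG00000185745) runs from 91152303 to 91166244, with its canonical start at 91152380. IFIT5 (ENSG00000152778) runs from 91174325 to 91181362 and starts at its first base. In each canonical transcript there are 2 exons. LIPA, which encodes lysosomal acid lipase, runs on the opposite strand from 91174314 to 90973326 across the cluster. One of its annotated starts lies 11 bp from that of IFIT5, so the marks at this place cannot be assigned to IFIT5 or LIPA.

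The peak lists give for each region its extent, a summit and the fold enrichment over the local background. Fold enrichment is not comparable between libraries, so each region was given the percentile rank of its fold enrichment within its own list, where 100 is the strongest region. The fold enrichment and p of a region together give the whole number of fragments at its summit, which was set per 10 M recovered reads. The recovered depth was 21.5 M and 29.4 M reads for H3K27ac in siCONT and siDLEU1 cells, and 28.4 M and 22.3 M for H3K4me3. All 7 epithelial markers reported, KRT5, KRT14, KRT6A, TP63, ITGB4, CDH1 and EPCAM, had a region at a TSS in every list. Of 8 markers of blood, endothelial and stromal cells that could be placed, CD14 and COL1A1 had one in every list, and 6 had none. Their percentile was 6.11 to 15.8 over the H3K27ac lists and 42.7 to 76.4 over the H3K4me3 lists, and that of the epithelial markers was 1.91 to 90.9 and 48.3 to 99.9. Intervals below are 95% Poisson or binomial intervals of the fragment numbers, which cover counting error only.

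In siCONT cells, all 5 H3K27ac regions of the cluster lay within IFIT genes or over their starts, and each overlapped H3K4me3. The IFIT5 region was the strongest, at a percentile of 94.1, and was 1729 bp wide with 149 fragments at its summit. The IFIT1 region was at 46.7, the IFIT2 region at 41.9, and the regions at the second and canonical starts of IFIT3 at 22.7 and 17.6. By fragments per 10 M reads, IFIT5 stood at 69.4 (58.7 to 81.5), above the intervals of the other members, while IFIT3 at 36.3 (28.7 to 45.3), IFIT2 at 33.1 (25.8 to 41.7) and IFIT1 at 28.4 (21.7 to 36.5) had overlapping intervals. IFIT3 was thus second by fragments and lowest by fold enrichment, as the local background at its canonical start was 3 control fragments against 1 at IFIT2 and 0.561 at IFIT1.

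H3K4me3 was more even among the members in siCONT cells. The percentile of the strongest region at any start was 95.8 at IFIT5, 93.0 at IFIT1, 89.9 at IFIT2 and 85.7 at IFIT3. At IFIT1 the mark was split into 2 regions, one ending at -114 from the TSS and the other starting at -5, and of the ISRE matches, 1 lay wholly in the gap between them and the other reached from the end of the upstream region into the gap. The broadest region of the cluster was 3013 bp wide and covered the second start of IFIT3. IFIT1B and the pseudogene IFIT6P had no region of either mark in any list.

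**Figure D1:**
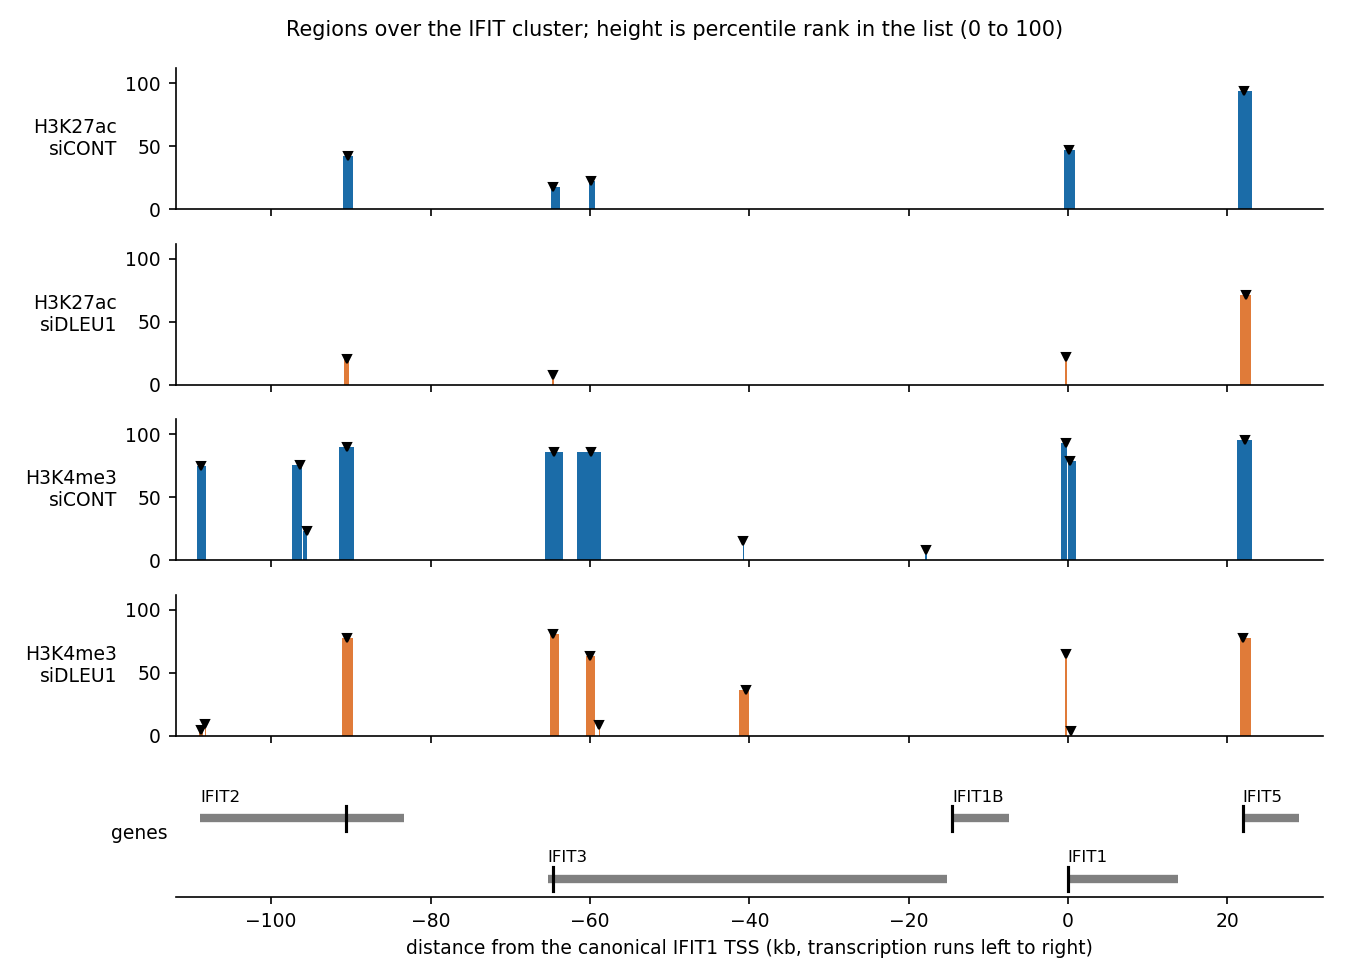
Each bar is a called region over the IFIT cluster, drawn to scale along the distance from the IFIT1 TSS in kb, and its height is the percentile rank in its list. The 5 and 11 regions of siCONT cells (blue) face 4 and 10 regions of siDLEU1 cells (orange), which are lower and narrower at the canonical starts of IFIT2, IFIT3 and IFIT5. At IFIT1 the siDLEU1 regions are lower and narrower too, but none covers the canonical start. Black ticks in the gene track mark canonical starts.

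Fewer bases of the cluster were covered by H3K27ac in siDLEU1 than in siCONT cells. The regions covered 6330 bp in siCONT and 2560 bp in siDLEU1 cells, a ratio of 0.404, against 0.714 for the whole H3K27ac lists. Of the 5 siCONT regions, 1 was not overlapped by any siDLEU1 region, against 22.2% of all siCONT regions. All 4 siDLEU1 regions overlapped a siCONT region, against 1.24% of all siDLEU1 regions that did not. Every one of the 2560 bp in siDLEU1 cells lay inside a siCONT region, so no base of the cluster gained a call. H3K4me3 covered 14150 and 7801 bp, a ratio of 0.551 against 0.917 for the whole lists. Of the 11 siCONT regions 3 were not overlapped, against 23.6% of all, and 0 of the 10 siDLEU1 regions were without a siCONT region, against 21.2% of all.

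At IFIT2, which binds AU-rich RNA, H3K27ac ran from 91061347 to 91062696 in siCONT cells and from 91061551 to 91062211 in siDLEU1 cells. Its width was 1350 and 661 bp, and its percentile 41.9 and 20.7. There were 71 fragments at the summit in siCONT cells and 35 in siDLEU1 cells, or 33.1 (25.8 to 41.7) and 11.9 (8.29 to 16.6) per 10 M reads. Both siRNAs kept the mark over the canonical TSS and over both ISRE matches. The ratio of siDLEU1 to siCONT was 0.360 (0.233 to 0.547), and a ratio as low or lower was found at 1.11% of the 12827 genes marked in both lists.

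At the canonical start of IFIT3, H3K27ac was 1136 bp wide in siCONT cells (91087491 to 91088626) and 243 bp in siDLEU1 cells (91087639 to 91087881). The summit held 78 and 39 fragments, or 36.3 (28.7 to 45.3) and 13.3 (9.43 to 18.1) per 10 M reads, a ratio of 0.365 (0.242 to 0.543). The remaining region started 115 bp before the TSS, which left the ISRE match nearest to the TSS outside it by 7 of its 10 bases. At the second start, a region of 771 bp with 42 fragments in siCONT cells (91092283 to 91093053) had no counterpart in siDLEU1 cells. A place without a region lies below the calling threshold, and its fragment number is not known.

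At IFIT1 the H3K27ac region went from 1344 bp (91151934 to 91153277) to 267 bp (91152009 to 91152275). The siCONT region covered the TSS and 898 bp beyond it, and in siDLEU1 cells 0 bp beyond the TSS were called. The summit lay 142 bp after the TSS in siCONT cells and 309 bp before it in siDLEU1 cells. It held 61 and 51 fragments, or 28.4 (21.7 to 36.5) and 17.3 (12.9 to 22.8) per 10 M reads. The ratio of 0.611 (0.413 to 0.901) compares summits 451 bp apart, and is not the ratio at a single place. One ISRE match of IFIT1 stayed inside the region and the other lay outside it.

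At IFIT5, H3K27ac was 1729 bp wide in siCONT cells (91173767 to 91175495) and 1389 bp in siDLEU1 cells (91174007 to 91175395). The percentile was 94.1 and 71.0. The fragments were 149 and 106, or 69.4 (58.7 to 81.5) and 36.1 (29.5 to 43.6) per 10 M reads, with a ratio of 0.520 (0.401 to 0.671). IFIT5 kept the largest share of its width among the members and remained the strongest of them in both lists.

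**Figure D2:**
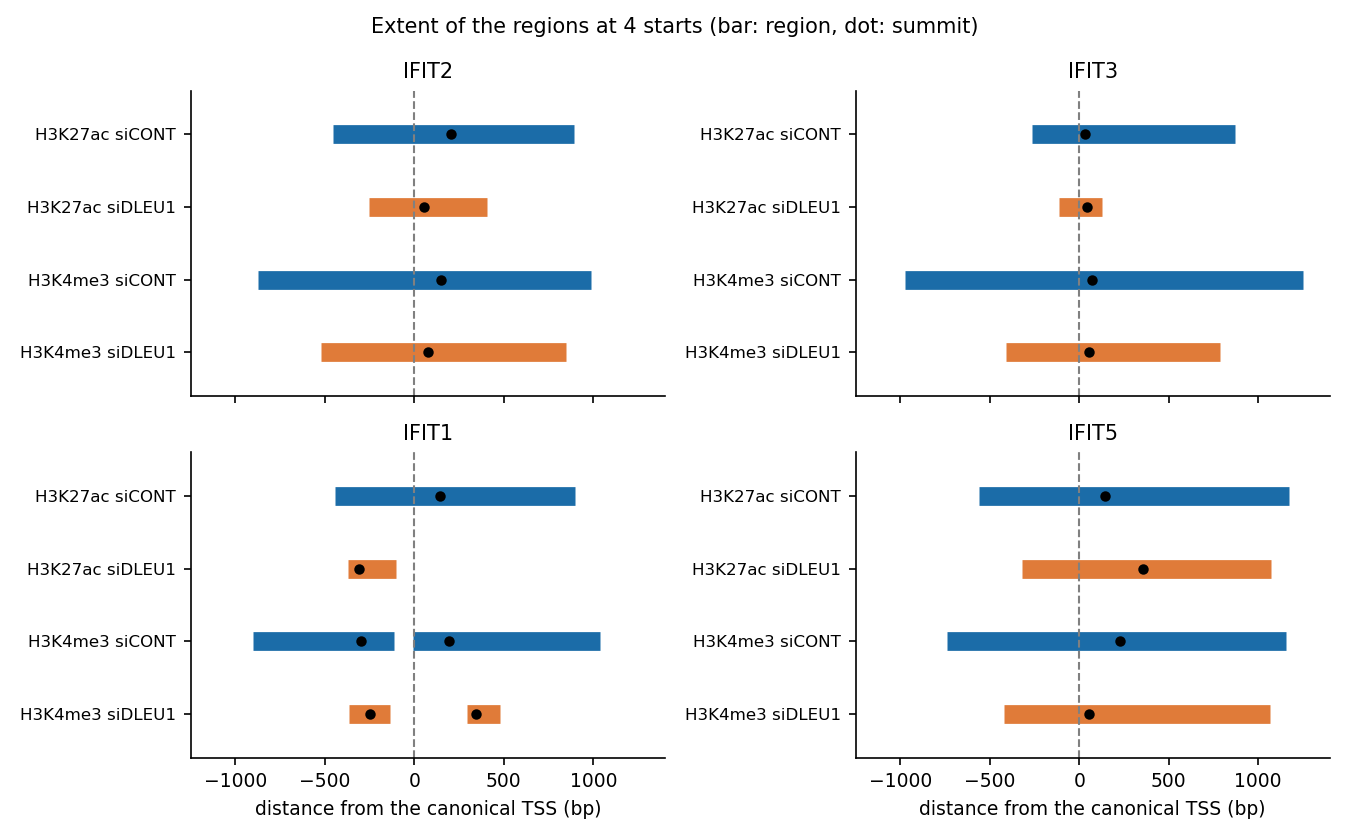
Horizontal bars show the extent of each called region in bp from the canonical TSS (dashed line) of IFIT2, IFIT3, IFIT1 and IFIT5, and dots mark summits. At IFIT1, the H3K27ac summit lies 142 bp after the TSS in siCONT (blue) and 309 bp before it in siDLEU1 cells (orange), and at IFIT3 the H3K27ac region is 1136 and 243 bp wide.

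By the strongest region at any annotated start, the H3K27ac percentile was lower in siDLEU1 cells at 4 of 4 members, against 62.8% of the 13591 genes with such a region in siCONT cells. The difference, siDLEU1 minus siCONT, was -25.0 points at IFIT1, -23.1 at IFIT5, -21.2 at IFIT2 and -14.8 at IFIT3, where the strongest regions of the 2 lists lay at different starts. At the canonical start of IFIT3 alone it was -9.59 points. A percentile lower by at least 20 points, or no region left, was seen at 3 of 4 members and at 22.9% of all genes. The median over the members was -22.1 points, and -4.59 over all genes. The region was narrower by at least 1.5 times at 3 of 4 members, against 33.3% of all genes, and the median width ratio was 0.402 against 0.794.

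Fragment numbers ordered the members differently from fold enrichment. Fragments per 10 M reads were lower at nearly all genes in siDLEU1 cells (99.1% of 12827), with a median ratio of 0.579, and they were lower at 4 of 4 members. The median ratio over the members, 0.565, was near that of all genes. Only IFIT2 was at least 2 times lower at its strongest region, against 16.2% of all genes, and its upper bound of 0.547 lay below the median of all genes, whereas the intervals of IFIT1 and IFIT5 contained that median. At IFIT3 the strongest regions by fold enrichment, at the second start in siCONT and the canonical start in siDLEU1 cells, had a ratio of 0.678 (0.427 to 1.07), and 83.4% of genes had a ratio as low or lower. The 0.365 at the canonical start of IFIT3 compares a single place and has no counterpart in this distribution of strongest regions. The local background at the summit was 0.561 control fragments at IFIT1 and 0.617 at IFIT5 in siCONT cells, and 1 at both in siDLEU1 cells. It was 1 and 0.440 at IFIT2, and 3 and 1 at the canonical start of IFIT3. The part of this background in the fold enrichment was not tested. Ranked by fragments, the difference in percentile was -35.7 points at IFIT2, -35.4 at IFIT3, -9.41 at IFIT1 and -7.45 at IFIT5.

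**Figure D3:**
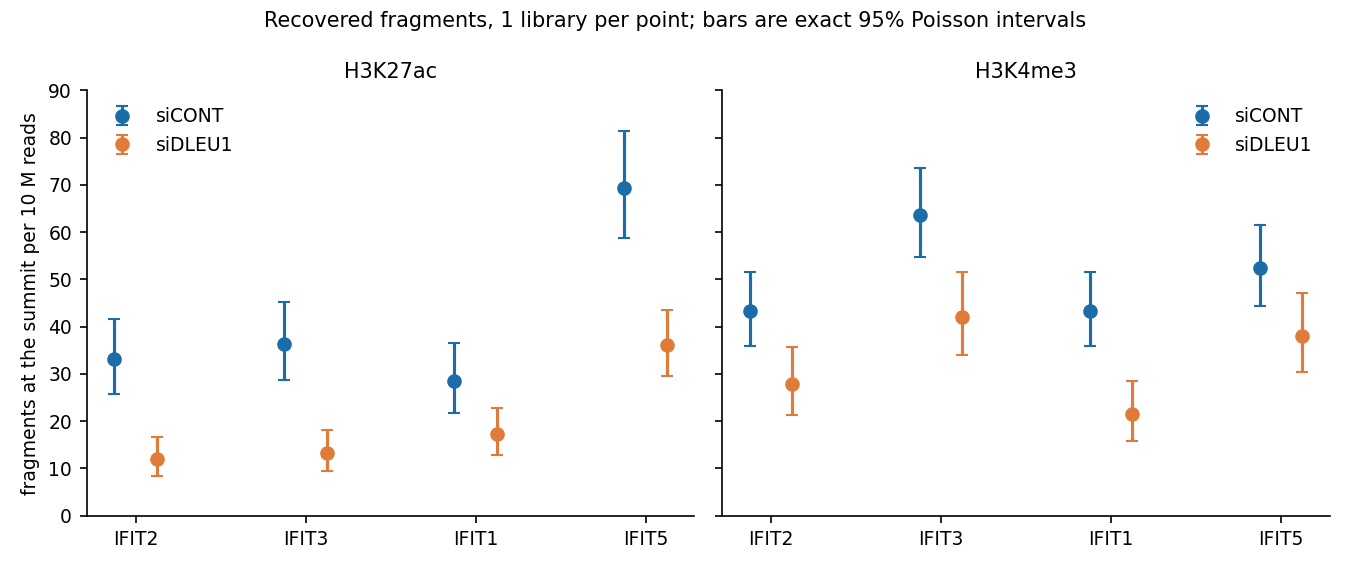
Points show recovered fragments at the summit per 10 M reads at the canonical start of each IFIT gene (at IFIT1 the strongest region, upstream for H3K4me3), 1 library per point, with exact 95% Poisson intervals. Every siDLEU1 point (orange) is below its siCONT point (blue), from 33.1 to 11.9 at IFIT2 for H3K27ac and from 43.3 to 21.5 at IFIT1 for H3K4me3.

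For H3K4me3, IFIT1 differed most between the siRNAs. Upstream of its TSS, a region of 789 bp at a percentile of 93.0 in siCONT cells (91151478 to 91152266) stood against 233 bp at 64.7 in siDLEU1 cells (91152014 to 91152246). It held 123 and 48 fragments, or 43.3 (35.9 to 51.6) and 21.5 (15.9 to 28.5) per 10 M reads, with a ratio of 0.497 (0.349 to 0.699). Downstream, the region over the TSS and exon 1 was 1041 bp wide with 97 fragments in siCONT cells (91152375 to 91153415). Its counterpart in siDLEU1 cells was 186 bp wide with 22 fragments (91152672 to 91152857), or 34.1 (27.7 to 41.6) and 9.86 (6.18 to 14.9) per 10 M reads, and the ratio was 0.289 (0.173 to 0.463). It no longer reached the TSS, and its percentile was 78.4 in siCONT and 3.81 in siDLEU1 cells.

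At IFIT2, the H3K4me3 region over the TSS was 1858 bp wide with 123 fragments in siCONT cells and 1366 bp with 62 in siDLEU1 cells, or 43.3 (35.9 to 51.6) and 27.8 (21.3 to 35.6) per 10 M reads. The ratio was 0.642 (0.465 to 0.879). Farther upstream IFIT2 carried H3K4me3 without H3K27ac. At its outermost annotated start, a region of 1126 bp at a percentile of 74.6 (91043140 to 91044265) was replaced by regions of 461 and 200 bp at 4.75 and 9.55. A region of 1186 bp at 75.4 (91055042 to 91056227) and its neighbour of 494 bp at 23.2 (91056430 to 91056923) had no counterpart in siDLEU1 cells. The canonical start of IFIT2 thus kept a percentile of 77.8, while no region farther upstream in the gene stood above 9.55.

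At the canonical start of IFIT3, H3K4me3 was 2226 and 1201 bp wide. Its fragments were 181 and 94, or 63.6 (54.7 to 73.6) and 42.1 (34.0 to 51.5) per 10 M reads, and the ratio was 0.662 (0.510 to 0.854). At the second start, 3013 bp became 2 regions of 1185 and 186 bp, with 119 fragments in siCONT cells and 61 at the stronger region in siDLEU1 cells. These were 41.8 (34.7 to 50.1) and 27.3 (20.9 to 35.1) per 10 M reads, with a ratio of 0.653 (0.472 to 0.897). H3K27ac was not called at this second start in siDLEU1 cells, so H3K4me3 stood there without it. At IFIT5 the H3K4me3 region was 1895 and 1491 bp wide, with 149 and 85 fragments, or 52.4 (44.3 to 61.5) and 38.1 (30.4 to 47.1) per 10 M reads. Its ratio of 0.727 (0.550 to 0.955) was the nearest to 1 among the canonical starts.

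One place went the other way. Within the long transcripts of IFIT3, with summits 23815 and 24266 bp after the canonical start, an H3K4me3 region was 213 bp wide with 31 fragments in siCONT cells (91111553 to 91111765) and 1292 bp wide with 37 fragments in siDLEU1 cells (91111098 to 91112389). Its percentile was 14.8 and 36.0. The fragments per 10 M reads were 10.9 (7.41 to 15.5) and 16.6 (11.7 to 22.9), and the interval of the ratio, 1.52 (0.918 to 2.54), contained 1. A weak region of 309 bp near the end of IFIT3 (91134385 to 91134693) was called in siCONT cells alone.

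The H3K4me3 percentile of the strongest region was lower at 4 of 4 members, against 48.1% of the 13668 genes with a region in siCONT cells. The difference was -28.3 points at IFIT1, -18.3 at IFIT5, -12.1 at IFIT2 and -4.77 at IFIT3. A percentile lower by at least 20 points, or no region left, was seen at 1 of 4 members and at 10.0% of all genes. The median was -15.2 points over the members and 0.256 over all genes. The region was narrower by at least 1.5 times at 2 of 4 members, IFIT1 and IFIT3, against 14.8% of all genes.

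H3K4me3 fragments per 10 M reads were lower at 4 of 4 members, whereas they were lower at 27.8% of the 13225 genes marked in both lists, whose median ratio was 1.16. The upper bounds at the 4 members, 0.699, 0.879, 0.854 and 0.955 for IFIT1, IFIT2, IFIT3 and IFIT5, were all below this median. A ratio as low as that of IFIT1 or lower was found at 0.590% of genes, and the values for IFIT2, IFIT3 and IFIT5 were 2.56%, 3.09% and 5.25%. At least 2 times lower were 1 of 4 members, IFIT1, and 0.612% of all genes.

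**Figure D4:**
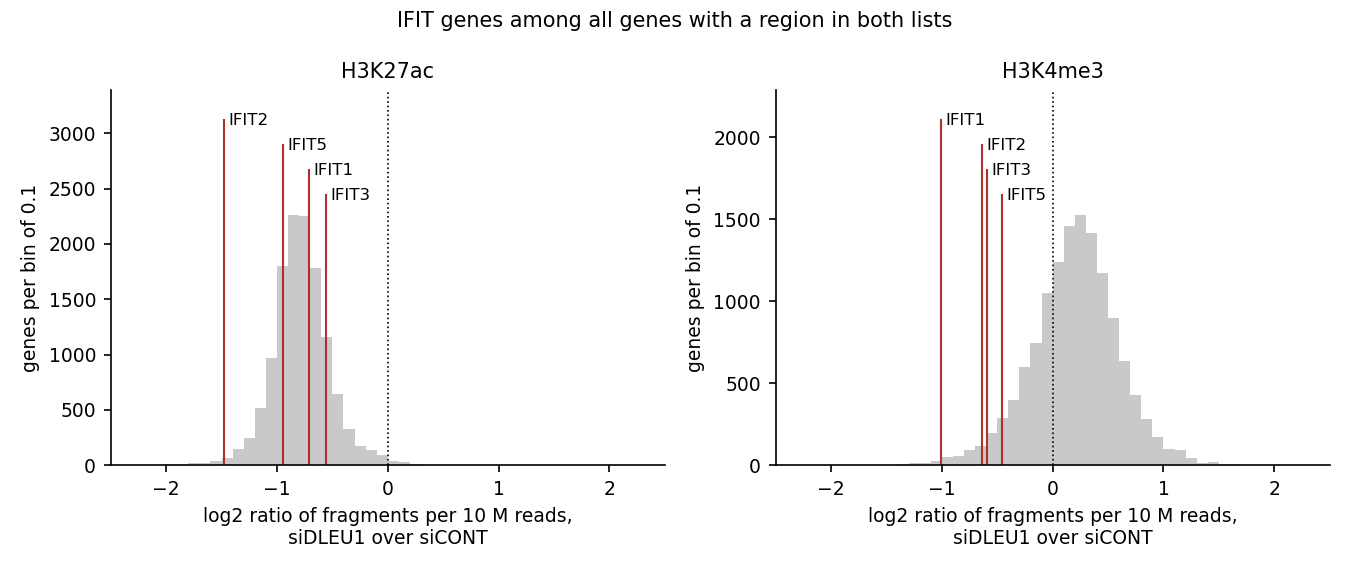
Grey bars count all genes by the log2 ratio of fragments per 10 M reads, siDLEU1 over siCONT, at the strongest region of the gene (12827 genes for H3K27ac and 13225 for H3K4me3), and red lines mark the IFIT genes by the same measure. For H3K27ac, IFIT2 (0.360) lies at the low edge, IFIT5 and IFIT1 (0.520 and 0.611) inside the peak and IFIT3 (0.678) on its high side, and for H3K4me3 all 4 lie on the low side of the distribution.

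Both marks covered fewer bases on both sides of the canonical starts, summed over the members, with different shares kept on each side. Within 1 kb before the canonical starts, H3K27ac regions covered 1723 bp in siCONT and 952 bp in siDLEU1 cells summed over the members, so 55.3% was kept. Within 1 kb after the starts they covered 3665 and 1537 bp, so 41.9% was kept. Over all genes the order was the reverse, with 67.0% kept before the TSS and 84.6% after it. Most of the lost downstream bases came from IFIT1 (898 and 0 bp) and IFIT3 (873 and 128 bp), while IFIT5 kept its full 1000 bp. H3K4me3 covered 3378 and 1585 bp before the starts (46.9% kept) and 3986 and 2823 bp after them (70.8% kept), and over all genes 94.1% and 94.4% were kept. Before the TSS, each of the members had fewer covered bases in siDLEU1 cells for both marks. For H3K27ac these were 456 and 252 bp at IFIT2, 263 and 115 bp at IFIT3, 446 and 267 bp at IFIT1, and 558 and 318 bp at IFIT5. For H3K4me3 they were 872 and 519 bp at IFIT2, 975 and 411 bp at IFIT3, 794 and 233 bp at IFIT1, and 737 and 422 bp at IFIT5. After the TSS, H3K4me3 covered fewer bases at 3 of 4 members, with 1000 and 186 bp at IFIT1, 1000 and 790 bp at IFIT3, 986 and 847 bp at IFIT2, and 1000 bp under both siRNAs at IFIT5. IFIT1 thus kept a smaller share of H3K4me3 after its TSS than before it, unlike the sum over the members.

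Outside the cluster, the canonical start of LIPA at 91011532 carried both marks, and their percentiles were higher in siDLEU1 cells. H3K27ac was 764 and 724 bp wide there, with 152 and 140 fragments, a percentile of 84.7 and 96.5 and a ratio per 10 M reads of 0.673 (0.531 to 0.852). For H3K4me3 the percentile was 78.1 and 84.9, and the ratio was 1.09 (0.801 to 1.48). The nearest protein-coding gene to the left, CH25H, which encodes cholesterol 25-hydroxylase and is itself inducible by interferon, lay 76377 bp from the cluster. Its H3K27ac percentile was 40.4 and 13.5. The ratio of its fragments per 10 M reads was 0.606 (0.397 to 0.922), against a median of 0.579 over all genes. The local background there was 0.561 control fragments in siCONT and 1 in siDLEU1 cells. The H3K4me3 region of CH25H in siCONT cells was weak, 294 bp wide with 27 fragments at a percentile of 27.2. It was not called in siDLEU1 cells. SLC16A12, a monocarboxylate transporter gene whose nearer end lies 8694 bp to the right, had no region of either mark within 1 kb of an annotated TSS.

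The upstream genes of the pathway were compared in the same way. Of 6 genes of the ISGF3 axis (the receptor chains IFNAR1 and IFNAR2, the kinases JAK1 and TYK2, and the ISGF3 subunits STAT2 and IRF9), 0 had a percentile lower by at least 20 points in either mark. Their median difference was 1.44 points for H3K27ac and -0.58 for H3K4me3. Over all genes, 22.9% for H3K27ac and 10.0% for H3K4me3 were lower by at least 20 points or had no region left. For H3K27ac, 3 of the 6 were higher in siDLEU1 cells, IFNAR1 at 73.2 and 93.7, STAT2 at 55.9 and 72.8, and IRF9 at 43.6 and 50.3. The other 3 were lower, IFNAR2 at 81.3 and 66.0, TYK2 at 91.7 and 76.1, and JAK1 at 89.4 and 85.6. At IFNAR1 and JAK1 the strongest H3K27ac regions of siCONT and siDLEU1 cells did not overlap, so their values compare different places. The fragments per 10 M reads gave another order. The H3K27ac ratio was 0.391 at STAT2, 0.390 at IRF9 and, between different places, 0.839 at IFNAR1. A ratio as low or lower was found at 1.97%, 1.93% and 96.7% of genes. At least 2 times lower were 3 of the 6, against 16.2% of all genes. The local background was 2 and 0.439 control fragments at STAT2, 3 and 1 at IRF9, and 0.497 and 0.439 at IFNAR1. Its part in these percentiles was not tested. Ranked by fragments, 2 of the 6 were lower by at least 20 points in H3K27ac, and the share of all genes under this ranking is not given here. Of 8 genes of cytosolic and endosomal RNA sensing, 4 were lower by 20 points or more in H3K27ac and 1 in H3K4me3. These were 50% and 12.5% of them, against 22.9% and 10.0% of all genes, so the H3K4me3 count was near the share of all genes. The RNA helicase gene IFIH1 was at 62.6 and 14.7 for H3K27ac, and DHX58 at 36.4 with no region left.

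Of 45 other interferon-stimulated genes (ISGs), 41 had an H3K27ac region at a TSS in siCONT cells. Of these, 22 (53.7%) were lower by at least 20 points or had none left, against 22.9% of all genes. The median difference of the 41 was -17.2 points, and 9 of 41 were higher in siDLEU1 cells. For H3K4me3, 14 of 39 (35.9%) were lower by that much or had none left, against 10.0% of all genes. The median of the 39 was -14.3. PARP9 and DTX3L had identical values in both marks, as did RSAD2 and CMPK2 in H3K27ac. Each of these genes was counted separately, so the counts are of genes and not of separate regions. The differences at the IFIT genes lay inside the range of this list for both marks. IFI27 differed by -76.4 points in H3K27ac, and OAS1 and IFI6, at 68.3 and 63.0 in siCONT cells, had no region left. IFI44L, MX2 and IFI27 differed most in H3K4me3, by -86.5, -75.6 and -71.2 points. At the other end, PARP14, IFITM3 and EPSTI1 were higher in H3K27ac by 35.0, 27.1 and 26.0 points, and PARP14, IFITM3 and IFI44 were higher in H3K4me3 by 8.92, 4.57 and 3.95 points. Fragments per 10 M reads were nevertheless lower at all of these except IFITM3 for H3K4me3, with H3K27ac ratios of 0.537, 0.546 and 0.531 at PARP14, IFITM3 and EPSTI1 and H3K4me3 ratios of 0.912 at PARP14, 1.11 at IFITM3 and 0.410 at IFI44. Of all genes marked in both lists, 99.1% were lower for H3K27ac and 27.8% for H3K4me3, with median ratios of 0.579 and 1.16. Over the other ISGs marked in both lists, the median ratio was 0.478 for H3K27ac and 0.712 for H3K4me3. The medians over the IFIT genes were 0.565 and 0.652. At least 2 times lower were 17 of 28 and 5 of 33 of the other ISGs, against 16.2% and 0.612% of all genes. Of the IFIT genes, 1 of 4 was that much lower for each mark. No region was left at 13 and 6 of the other ISGs for H3K27ac and H3K4me3. This was the case at 0 of 4 IFIT genes for either mark, and at 5.62% and 3.24% of all genes.

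**Figure D5:**
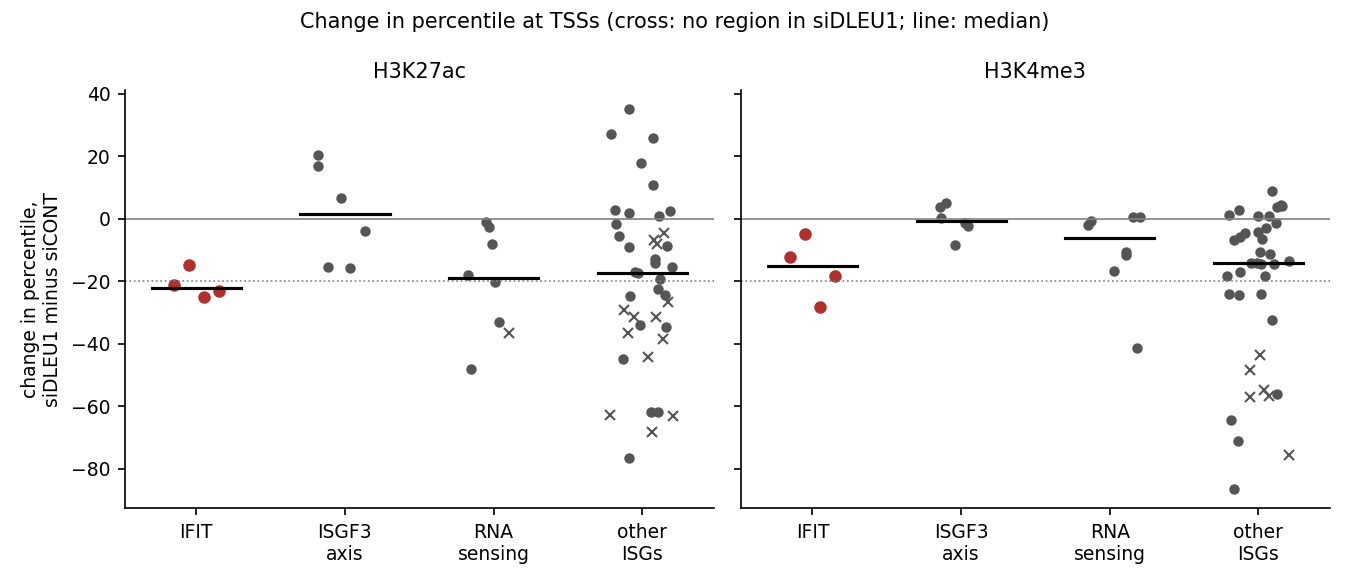
Each point is a gene with a region at a TSS in siCONT cells, and its height is the difference in percentile, siDLEU1 minus siCONT. The dotted line is at -20 points, crosses are genes with no region left, and black lines are medians. The IFIT genes lie between -14.8 and -25.0 for H3K27ac, inside the wide range of the other ISGs, and the ISGF3 axis lies around 0 for H3K4me3.

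Genes with the ISRE core at their start were described over the whole annotation. Among genes with an H3K27ac region in siCONT cells, 51.4% of the 35 with 2 or more matches, the IFIT genes among them, were lower by at least 20 points or had no region left. The share was 26.9% of 290 genes with 1 match and 22.7% of 13266 without one. For H3K4me3 the shares were 28.6% of 35, 11.6% of 303 and 9.94% of 13330. Over the whole cluster the motif occurred 39 times, 10 of them inside an H3K27ac region in siCONT and 6 in siDLEU1 cells, and 13 and 10 inside an H3K4me3 region. The matches inside regions were fewer in siDLEU1 cells by a smaller share than the covered bases, so the matches per kb of region were higher there. They were 1.58 and 2.34 for H3K27ac and 0.919 and 1.28 for H3K4me3, against 0.283 over the whole cluster.

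The genes whose 4 percentiles were most like those of a member were found by Euclidean distance over the 12258 genes with a region in all 4 lists. For IFIT1 these were LTC4S, KCNN4 and NPIPB9, at distances of 5.41, 6.60 and 9.13 points. They were CCDC9, SLC15A3 and ARHGEF17 for IFIT2 (3.10, 6.34 and 7.11), and POLI, CREB3L4 and LINC02893 for IFIT3 (1.82, 3.25 and 6.48). For IFIT5 they were MRPL50 and ZNF189, which share 1 region and a distance of 3.11, and LGALS3 at 4.29. Another member was not among the 3 nearest genes of any IFIT gene.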

How the data were processed

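HSC3 cells were examined by ChIP-seq in 1 library per siRNA and mark. Per the labels and the study's methods, Ion Proton reads were mapped to hg19 with bowtie2, and the authors called peaks in each library with MACS2. The deposited lists give the fold ratio over the local background, the −log10 p and the −log10 q of each peak, and the offset of its summit. The deposited score, a display value, was not used. The 2 input libraries were not analysed here. How reads that match several IFIT genes were placed is not given in the sources used here.

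Regions on chromosomes 1 to 22 and X were set against GENCODE genes with a curated RefSeq transcript on GRCh37 (19136 protein-coding, 4995 lncRNA). No region ended past a chromosome. A region within 1 kb of any annotated TSS was assigned to the gene. Regions of the siRNAs were matched by an overlap of at least 1 bp. Fragment numbers at summits came out whole for 100% of regions (tolerance 0.01), and for 100% of simulated peaks in a test on simulated data. Depth rests on an assumed genome of 2.7 Gb. A summit of 3 fragments corresponds to 1.02 to 1.40 per 10 M reads.

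The members, gene lists and motif were chosen with earlier results of these data known. The genes named were the members, IFIT1B, the nearest gene on either side, the ISGF3 axis, the 3 largest falls and rises among the other ISGs for each mark, and the 3 genes nearest to each member in the 4 percentiles. LIPA, IFIT6P, IFIH1 and DHX58 were named after their values were seen. Some genes are not reported here and were left out of the lists. No p-value was computed. Other settings tried were peaks with −log10 q of 10 or more, an overlap of 50%, stitching within 1 kb, 5 kb flanks, gene bodies alone, windows of 3 and 5 kb, 1 TSS per gene, ranks by −log10 p or by fragments, and unscaled fragments. Fragments over the mean coverage of the library were added after seeing the data. The software was scipy 1.17.1, pandas 2.3.3 and numpy 2.4.6 under Python 3.11.15, with matplotlib 3.10.9 for figures.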

Additional observations from a re-analysis of the deposited data

How the results depend on the processing

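The alternative runs covered region counts, covered lengths, overlaps, differences in percentile, and median width and fragment ratios. None of these changed direction at the IFIT cluster. The ratios of single regions, the bases on either side of the starts and the motif counts were not rerun. The H3K4me3 region within IFIT3 that went the other way had a −log10 q of 2.99 in siCONT and 6.85 in siDLEU1 cells, below the stricter cut of 10. With peaks kept from a −log10 q of 10 upward, 1 H3K27ac and 5 H3K4me3 regions were left in siDLEU1 cells, the covered H3K27ac ratio was 0.219, 1 siCONT and 1 siDLEU1 region overlapped for H3K27ac and 5 and 5 for H3K4me3, and the median difference in percentile was -26.4 and -30.9 points. Under it 3 members were lower by 20 points in H3K4me3. So were, or had no region left, 2 genes of the ISGF3 axis in H3K27ac and 4 of RNA sensing in H3K4me3. Shares and medians over all genes under this cut are not given here, so these counts and medians have no background beside them. The H3K27ac difference at IFIT3 was then -1.04, from a percentile of 1.04 in siCONT cells to no region. With an overlap of 50% of both regions, 1 and 1 H3K27ac and 3 and 3 H3K4me3 regions were shared. Ranked by fragments, the H3K4me3 median was -16.0 and 2 genes of the ISGF3 axis were lower by 20 points in H3K27ac. Ranked by −log10 p, the H3K27ac difference was -24.4 at IFIT3. The median fragment ratio at the members was 0.565 for H3K27ac and 0.652 for H3K4me3 in the main run, against 0.579 and 1.16 over all genes. At the members it was 0.774 and 0.512 without scaling by depth, and 0.601 and 0.701 over the mean coverage of the library. Values over all genes under these settings are not given here. No paired analysis was possible because each mark and siRNA has a single library without a replicate number. The H3K27ac library of siDLEU1 cells was the deeper one and the H3K4me3 library the shallower one, and depth, library and siRNA cannot be told apart.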
